A study of Mus musculus with 11 samples.

Results

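Described here are 9 genes of the acute inflammatory response, measured by 16 probe sets, that were followed in mouse colon before and after imatinib. They are the pentraxin gene Ptx3, the cytokine genes Il6, Il1b and Tnf, the IL-1 antagonist gene Il1rn, the chemokine genes Cxcl1, Cxcl2 and Ccl2, and the feedback inhibitor gene Socs3. Their probe sets are those of an Affymetrix mouse 430 2.0 array that the platform annotation assigned to exactly 1 of these symbols, 16 of 45101 in the table, and the 9 genes stood among 18193 tested. The genes were chosen by their levels on these same arrays, with all 3 group differences known, so their values in every comparison are given as description without a p-value. The colon came from adult mice of background strain C57BL/6, in 3 groups. The control group (n = 3) was labelled as colon before imatinib, and the others were taken 3 h (n = 4) and 12 h (n = 4) after an imatinib injection. Imatinib inhibits the Abl, Kit and PDGF receptor tyrosine kinases, and the series title names EphB to Abl signalling in intestinal tumours. The labels give no dose, no vehicle-injected group and no hour of harvest for the controls, so drug, injection and hour cannot be told apart. They number the replicates without saying that each was a separate mouse, so p-values measure only the spread between these samples.

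IL-6 binds its receptor together with the shared subunit gp130 and activates the transcription factor STAT3, which induces Socs3, and SOCS3 then blocks gp130 signalling. CXCL1 and CXCL2 draw neutrophils through the receptor CXCR2, CCL2 draws monocytes through CCR2, and IL-1 beta and TNF induce many of these genes through NF-kB. PTX3 is a secreted pattern recognition protein that macrophages, dendritic cells, endothelium and stromal cells make after such signals, and it binds complement C1q and the hyaluronan-linked protein encoded by Tnfaip6.

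The deposited values are linear signals with array medians from 16.8 to 23.9. The colon epithelial markers were present on every array, with a summed signal of 13 measured genes from 47512 to 65059. Pancreatic acinar markers set 5 arrays apart, namely control replicate 1, 3 h replicate 3 and 12 h replicates 1, 3 and 4. On 3 h replicate 1 Cela1, at 2191.7, made up most of their summed signal of 2381.5. Prss2, Cpa1 and Ctrb1 were at 7, 2.3 and 1.3 on that array. With 3 or 4 arrays in a group, precision is limited by their number. In whole tissue, fewer cells of a type and less RNA per cell cannot be told apart.

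On 12 h replicate 4 the signals of 8 of the 9 genes, all but Il1rn, were the lowest of the 12 h group, and Ccl2 was lower than on any control. On control replicate 3 the signals of Cxcl1 and Socs3 were the highest of the controls. In the probe sets of the 9 genes, no linear signal of 12 h replicate 4 passed Dixon's test for a value apart from its group. The control group, with 3 arrays, was not tested. Other genes and logarithms of the signals were not tested either, so the result does not show that 12 h replicate 4 was like its group. Where leaving out 1 array moved a difference by much, the range over such omissions is given below.

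At 3 h 8 of the 9 genes had a higher mean than the controls and Tnf had a lower one. Ptx3, Il6 and Cxcl1 passed limma's test over all genes, which called 1.43% of genes higher at an adjusted p under 0.05. For Ptx3, Il6, Cxcl1, Ccl2 and Socs3 all 3 h arrays lay above all controls, as they did for 6.77% of all genes. At 12 h none of the 9 passed, against 1.63% of all genes called in either direction and 2883 genes with an unadjusted p under 0.05, and the arrays of all 9 overlapped those of the controls, whereas 13% of all genes had arrays that did not overlap. From 3 h to 12 h Ptx3 and Il6 passed with lower levels, where 2.08% of all genes were called lower. Ptx3, Il6, Cxcl1, Il1rn and Socs3 had all 12 h arrays below all 3 h arrays, as did 5.26% of all genes. Since these contrasts were in view when the genes were chosen, the counts support nothing further. Under the alternatives run, Ptx3 passed at 3 h in each, and Il6 in each but a filter on low values that removed it. Cxcl1 did not pass with an offset of 1, with its probe sets averaged, or without control replicate 1 or 2 or 3 h replicate 2 or 3, nor without the 5 arrays named above. In the fit over all probe sets other than controls, which gave the SE below, no Cxcl1 probe set passed at 3 h. Without 12 h replicate 4, Ccl2 and Socs3 passed at 3 h too, and Ccl2 at 12 h. Socs3 also passed at 3 h without control replicate 3, with array weights and with the filter, and Ccl2 with only the arrays of the groups compared. Leaving out the 5 arrays keeps a single 12 h array, so tests at 12 h then assume that it varies like the other groups, and Il6 did not pass from 3 h to 12 h.

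**Figure D1:**
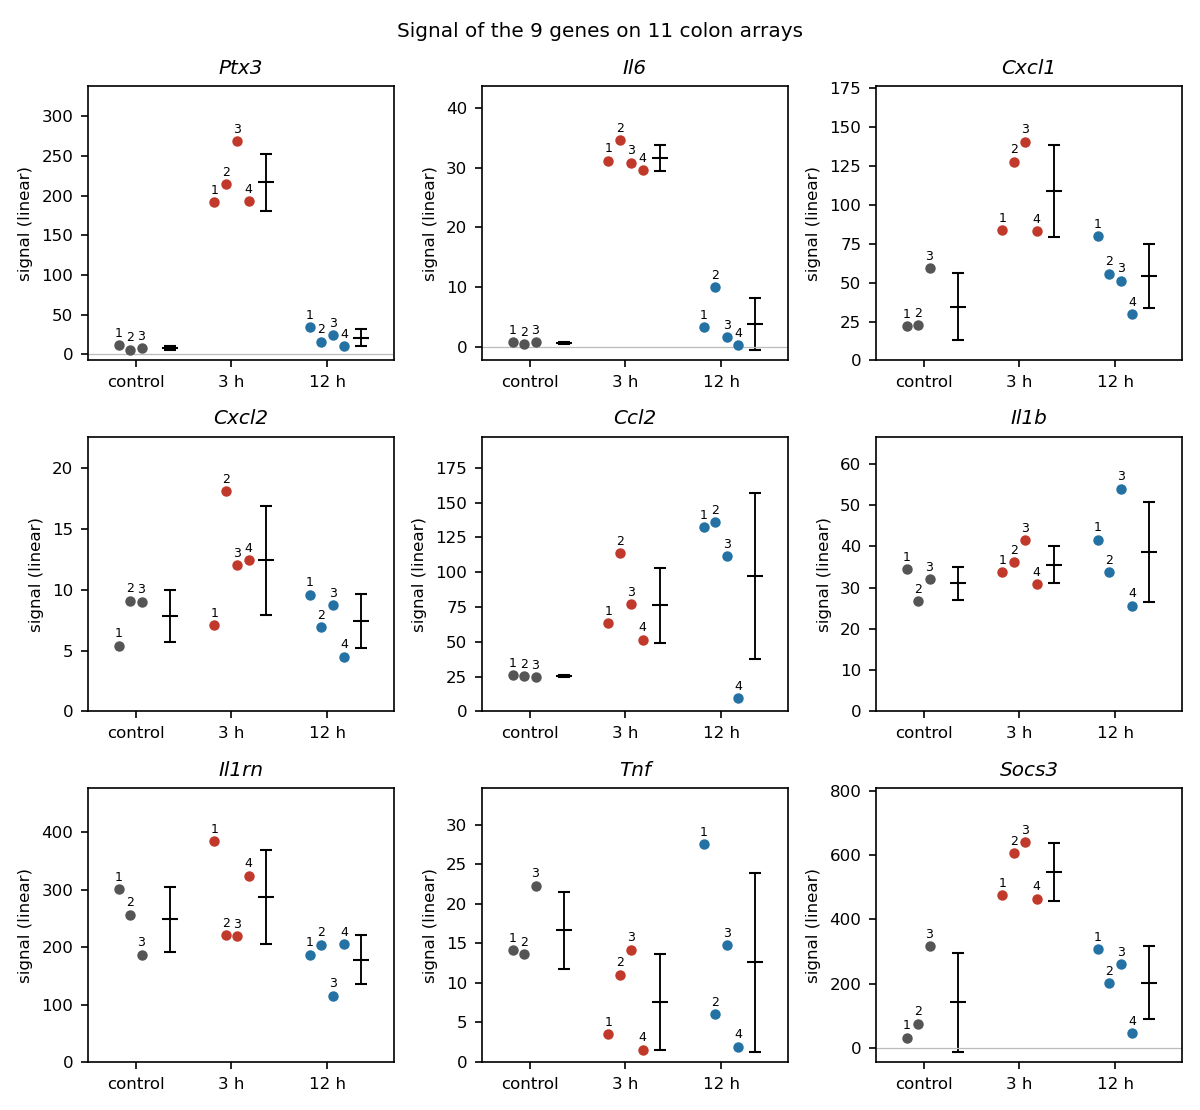
Each panel shows the linear signal (y axis) of the brightest probe set of 1 gene in the control, 3 h and 12 h groups, with 1 point per array labelled by its replicate number, and the mean ± SD in black. Ptx3 lies between 192.1 and 268.7 at 3 h and at or below 34.8 on all other arrays, while Ccl2 is as high at 12 h as at 3 h except on replicate 4.

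Promoter sequence is shown for the genes that were higher together at 3 h and are in RefSeq's table (build GRCm38.p6), which holds 8 of the 9 genes and not Ccl2. Each window runs from 250 bases before to 50 bases after an annotated start site, on the gene's own strand. Capitals mark matches on either strand to 7 motifs: TGACGTCA (CRE), TGANTCA (AP-1), TTCNNNGAA (STAT), ACANNNTGT (glucocorticoid response element), TTNNGCAA (C/EBP), GGNNNTTCC (NF-kB) and TATAAA (core promoter box).
Ptx3, chr3:66219637-66219936, plus strand: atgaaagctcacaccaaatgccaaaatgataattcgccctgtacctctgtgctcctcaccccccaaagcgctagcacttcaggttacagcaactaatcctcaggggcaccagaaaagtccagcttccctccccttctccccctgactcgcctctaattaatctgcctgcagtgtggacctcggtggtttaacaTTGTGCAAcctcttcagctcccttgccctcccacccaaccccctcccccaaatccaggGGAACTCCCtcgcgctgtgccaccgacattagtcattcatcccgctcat
Il6, chr5:30012864-30013163, plus strand: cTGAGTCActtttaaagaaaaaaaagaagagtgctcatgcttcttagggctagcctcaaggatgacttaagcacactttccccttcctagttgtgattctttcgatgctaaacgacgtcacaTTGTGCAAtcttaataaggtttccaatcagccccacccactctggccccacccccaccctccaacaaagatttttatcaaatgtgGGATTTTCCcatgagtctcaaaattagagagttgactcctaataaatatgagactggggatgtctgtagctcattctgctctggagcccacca
Cxcl1, chr5:90890995-90891294, plus strand: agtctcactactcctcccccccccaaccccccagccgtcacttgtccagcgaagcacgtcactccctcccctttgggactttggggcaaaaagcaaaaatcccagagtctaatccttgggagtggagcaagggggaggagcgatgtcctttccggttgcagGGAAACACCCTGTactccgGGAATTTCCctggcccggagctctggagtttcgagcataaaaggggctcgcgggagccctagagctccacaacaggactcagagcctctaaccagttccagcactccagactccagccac
Socs3, chr11:117969317-117969616, minus strand: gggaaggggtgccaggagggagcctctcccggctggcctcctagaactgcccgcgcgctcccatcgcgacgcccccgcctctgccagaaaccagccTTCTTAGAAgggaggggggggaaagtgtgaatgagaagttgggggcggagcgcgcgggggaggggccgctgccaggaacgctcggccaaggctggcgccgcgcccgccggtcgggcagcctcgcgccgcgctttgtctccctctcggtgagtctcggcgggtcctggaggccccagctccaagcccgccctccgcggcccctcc

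The same C/EBP match, TTGTGCAA, lies at positions −57 to −50 of the Ptx3 window and −128 to −121 of the Il6 window, counted from the start site. Of all 32851 windows 10.8% hold a C/EBP match. The NF-kB letters match in the windows of 6 of the 8 genes and in 18.5% of all windows. They match at 2 to 10 in Ptx3, at −43 to −35 in Il6 and at −70 to −62 in Cxcl1, where the letters match on both strands. A further NF-kB match of Cxcl1 overlaps its glucocorticoid response element match, a motif that 6.85% of all windows hold. Cxcl2, the neighbouring paralogue of Cxcl1, has the letters GGAATTTCC of that Cxcl1 site at −96 to −88. The window of Socs3 holds a STAT match at −154 to −146, as 8.3% of all windows do. These are matches of letters and do not show binding.

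On the log2(signal + 16) scale, and by the brightest probe set of each gene, Ptx3 had the largest difference of the 9 genes at 3 h. Its signal was 11.5, 6.1 and 7.7 on the controls, 192.1, 214.2, 268.7 and 193 at 3 h, and 34.8, 16.1, 24 and 10.1 at 12 h. The 3 h arrays lay far above every other array, and the 12 h arrays overlapped the controls, since 12 h replicate 4 was below control replicate 1. The mean of log2(signal + 16) was higher at 3 h than in control by 3.25 ± 0.20 (SE) and higher at 12 h by 0.57 ± 0.20 (SE). The control signals lie below the offset of 16, which is added before the logarithm to damp noise of dim probe sets. The 3 h difference was therefore 4.56 with an offset of 1 and 1.95 with an offset of 64, and no fold is given. The other Ptx3 probe set had signals at or below 8.4 on all arrays, with a 3 h difference of 0.11 ± 0.15 (SE), so only 1 of the 2 probe sets of this gene recorded the difference. With both averaged the 3 h difference was 1.68, below that of Socs3 treated the same way, 2.02.

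Il6 was near the bottom of the scale in control. Its signal was 0.7, 0.4 and 0.7 on the controls, 31.2, 34.7, 30.9 and 29.6 at 3 h, and 3.3, 10, 1.6 and 0.2 at 12 h. The 4 arrays at 3 h lay close together and above all others, and at 12 h replicate 2 kept the highest level and replicate 4 had the lowest of all 11 arrays. The log2(signal + 16) difference was 1.52 ± 0.14 (SE) at 3 h and 0.23 ± 0.14 (SE) at 12 h, and the latter was 0.09 without 12 h replicate 2. The offset bears on this gene most, since the 3 h difference was 4.35 with an offset of 1 and 0.57 with an offset of 64. Without the 5 arrays high in pancreatic markers, which leaves 12 h replicate 2 alone at 12 h, the 12 h difference was 0.65 and the difference of 12 h from 3 h was −0.88 in place of −1.29.

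Socs3, whose protein limits signalling by IL-6, was high at 3 h and spread widely in control. The signal of its brightest probe set was 32.5, 75.5 and 317.7 on the controls, 474.2, 605.7, 640.8 and 464.6 at 3 h, and 306.7, 201.3, 260.4 and 45.9 at 12 h. Control replicate 3 was above every 12 h array, and 12 h replicate 4 lay between the other controls. The difference was 2.29 ± 0.63 (SE) at 3 h and 0.71 ± 0.63 (SE) at 12 h. Leaving out 1 control moved both, to 1.67 and 0.09 without replicate 1, to 2.13 and 0.55 without replicate 2, and to 3.06 and 1.48 without replicate 3. Without 12 h replicates 1 and 4 in turn the 12 h difference was 0.44 and 1.24. The difference of 12 h from 3 h was −1.58, and −1.05 without 12 h replicate 4. All 3 probe sets of Socs3 had every 3 h array above every control, with 3 h differences from 1.79 to 2.29. Of these 3, 2 carry the suffix x_at, which marks probes that can also match other transcripts.

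Cxcl1, a neutrophil attractant, had signals of 22.2, 22.5 and 59.2 in control, 83.7, 127.8, 140.7 and 83.2 at 3 h, and 79.7, 55.8, 51.3 and 29.6 at 12 h. Every 3 h array was above every control and every 12 h array, and control replicate 3 lay among the 12 h arrays. The mean signal in control was 34.6 ± 21.3 (SD, n = 3). At 3 h it was 108.9 ± 29.8 (SD, n = 4), 3.14-fold higher, with a log2(signal + 16) difference of 1.35 ± 0.29 (SE). The 3 probe sets of Cxcl1 had 3 h differences of 1.35, 0.59 and 1.54, and in each of them the 3 h arrays lay above the controls. The probe set with 0.59 carries the suffix x_at, and only the one with 1.54 carries the plain suffix at. Without control replicate 3 the 3 h difference was 1.67, and without control replicate 1 it was 1.18. At 12 h the difference was 0.50 ± 0.29 (SE). It was 0.33 without control replicate 1 or 12 h replicate 1, 0.69 without 12 h replicate 4 and 0.82 without control replicate 3.

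Cxcl2, which acts on the same receptor, was dim on every array, with signals from 5.4 to 9.1 in control, from 7.1 to 18.1 at 3 h and from 4.5 to 9.6 at 12 h. The groups overlapped, and the differences were 0.24 ± 0.14 (SE) at 3 h and −0.03 ± 0.14 (SE) at 12 h.

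Ccl2, a monocyte attractant, was high at both times, and with Il1b and Tnf it was 1 of 3 genes whose 12 h mean was not below the 3 h mean. Its signal was 26, 25.2 and 24.7 in control, 63.2, 113.6, 76.9 and 51.4 at 3 h, and 132.2, 136.1, 111.4 and 9.5 at 12 h. The controls lay close together, all 3 h arrays were above them, and at 12 h replicates 1, 2 and 3 were high while replicate 4 was below the controls. The control mean was 25.3 ± 0.656 (SD, n = 3). It was 76.3 ± 27.0 (SD, n = 4) after 3 h and 97.3 ± 59.5 (SD, n = 4) after 12 h, and the differences from control were 1.12 ± 0.51 (SE) and 1.16 ± 0.51 (SE). Without 12 h replicate 4 the 12 h difference was 1.78, and without any other single array it lay between 0.92 and 1.18. The difference of 12 h from 3 h was 0.05, and it ranged from −0.19 without 12 h replicate 2 to 0.67 without 12 h replicate 4.

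The classical inducers stayed low. Il1b had signals from 26.7 to 34.5 in control, from 30.8 to 41.5 at 3 h and from 25.6 to 54 at 12 h, with differences of 0.13 ± 0.16 (SE) and 0.19 ± 0.16 (SE). Tnf had signals from 13.6 to 22.3 in control, from 1.5 to 14.2 at 3 h and from 1.9 to 27.6 at 12 h, with differences of −0.50 ± 0.28 (SE) and −0.27 ± 0.28 (SE). The arrays of the groups overlapped for both genes, and at these signals small changes were not detectable. Il1rn, which encodes the natural antagonist of the IL-1 receptor, had signals of 301.2, 257.3 and 187.6 in control, 384.4, 220.8, 220.1 and 325.1 at 3 h, and 187.7, 204.9, 116 and 205.3 at 12 h. Its 3 probe sets had 3 h differences from control between 0.18 and 0.39 and 12 h differences between −0.45 and −0.23, with overlapping arrays. In each of the 3 probe sets all 12 h arrays were below all 3 h arrays, by 0.61 to 0.78 on the log2 scale.

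**Figure D2:**
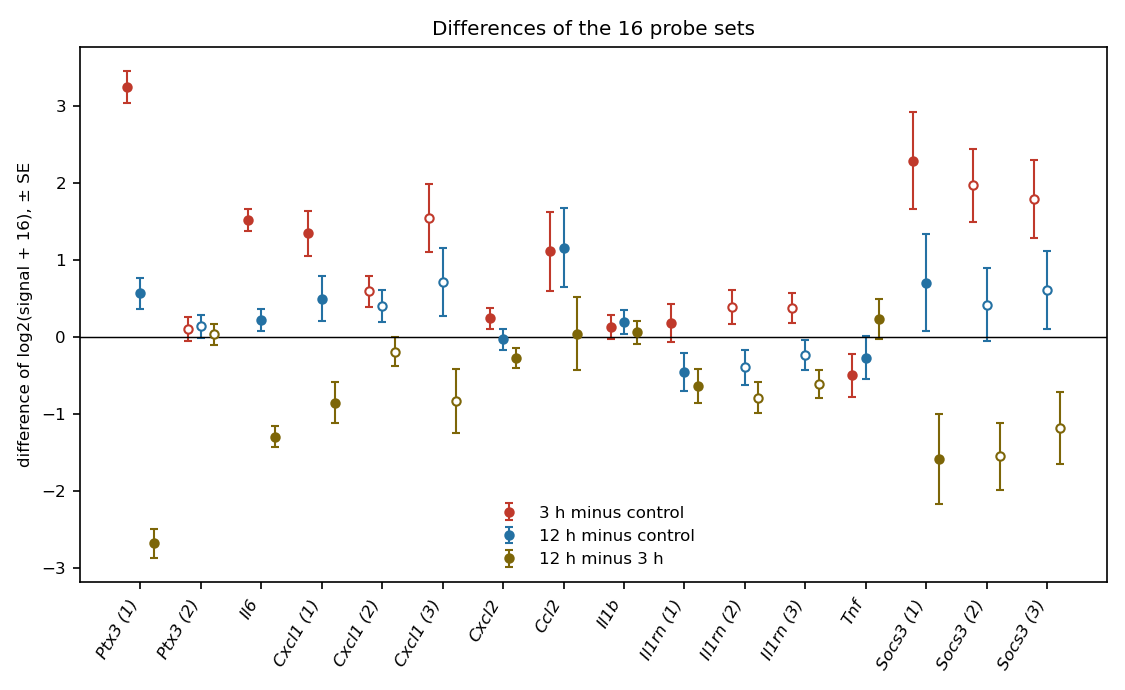
Differences of mean log2(signal + 16) between groups (y axis) with their SE for the 16 probe sets, ordered by gene and, within a gene, by mean level. Filled points mark the probe set used for the gene and open points the others. The second Ptx3 probe set lies near 0 in all 3 comparisons while the 3 of Socs3 lie between 1.79 and 2.29 at 3 h.

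Around these 9 genes, 216 further genes of 11 lists (receptors, signalling parts, related cytokines and chemokines, targets) were measured of 238 listed. At 3 h 21 of them rose and 3 fell (limma, adjusted p under 0.05), 11.1% against 2.54% of all genes, with a median log2 difference of 0.09 against −0.02 for all genes. At 12 h 6 rose and 3 fell, 4.17% against 1.63% of all genes. From 3 h to 12 h 6 rose and 15 fell, 9.72% against 4.07%. The lists were drawn up with earlier results of these arrays known. Leaving out 12 h replicate 4 gave 23 called at 12 h in place of 9, and a fit without the 5 pancreatic-high arrays gave 8, 2 and 0 called in the 3 comparisons, with a single array left at 12 h. Leaving out control replicate 1 gave 8 at 3 h and 1 at 12 h, and leaving out control replicate 2 gave 10 and 2. Other single arrays moved a count by over 1.5 times too. Without 3 h replicates 2 and 3 the 3 h count was 11 and 13. The 12 h count was 5 and 4 without 3 h replicates 1 and 4, and 4, 3 and 3 without 12 h replicates 1, 2 and 3.

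**Figure D3:**
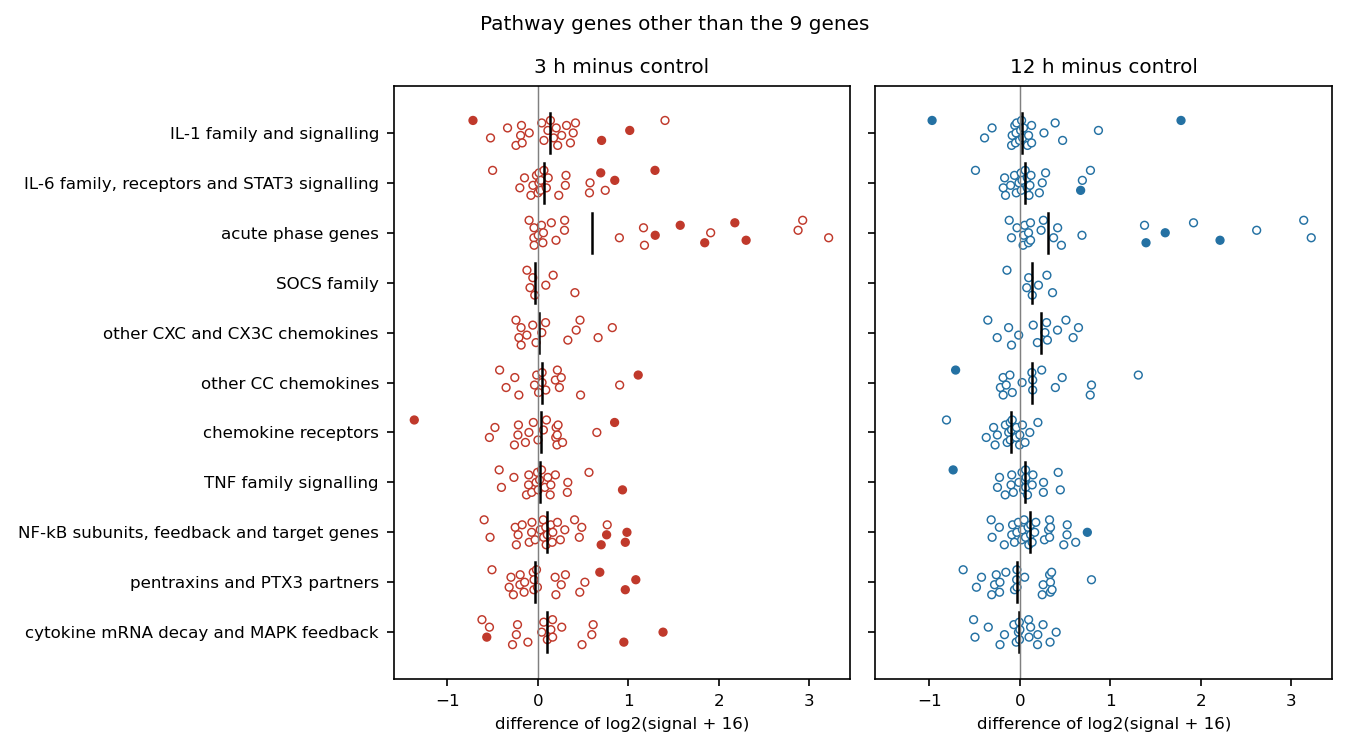
Difference of log2(signal + 16) from control (x axis) at 3 h and at 12 h for each measured gene of the 11 lists (rows), with filled points where limma's adjusted p was under 0.05 and a black bar at the list's median. The acute phase genes spread farthest to the right, with medians of 0.60 and 0.32, and most of their points are open.

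The receptors for IL-1 rose at 3 h. Il1r1, the signalling receptor, went from 85.5 ± 16.1 (SD, n = 3) to a mean signal of 189.4 at 3 h and 80.6 at 12 h, a log2 difference at 3 h of 1.02 ± 0.18 (SE; limma adjusted p = 0.0114). Il1r2, the decoy receptor, rose by 0.70 ± 0.12 (SE; limma adjusted p = 0.00831), and both fell from 3 h to 12 h, by 1.10 ± 0.16 and 0.74 ± 0.11 (SE). The co-receptor gene Il1rap had a 3 h difference of 0.32 ± 0.14 (SE; limma adjusted p = 0.293). Of 23 IL-1 family and signalling genes 2 rose and 1 fell at 3 h, and 1 rose and 1 fell at 12 h, with medians of 0.14 and 0.02. The cytokine gene Il18 fell at both times, by 0.72 ± 0.16 and 0.97 ± 0.16 (SE), and the alarmin gene Il33 rose at 12 h by 1.78 ± 0.36 (SE; limma adjusted p = 0.033). From 3 h to 12 h 3 genes fell, among them Irak3, and Sigirr, which encodes an inhibitory receptor of the family, rose by 0.57 ± 0.10 (SE). Leaving out 1 array ended the call of Il18 at 3 h for 7 of the 11 arrays (largest limma adjusted p 0.147) and at 12 h for 1 (0.0729). It ended those of Il33 at 12 h for 7 (up to 0.125), Irak3 for 8 (up to 0.107) and Il1r1 at 3 h for 1 (0.06).

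Among 23 genes of the IL-6 family, its receptors and STAT3 signalling 3 rose and none fell at 3 h (limma; 8 with an unadjusted p under 0.05), and 1 rose at 12 h, with medians of 0.07 and 0.06. Osmr, the receptor for oncostatin M, rose at 3 h by 1.29 ± 0.25 (SE; limma adjusted p = 0.0181), Cntfr by 0.85 ± 0.14 (SE) and the repressor gene Bcl6 by 0.69 ± 0.11 (SE). Cntfr was also higher at 12 h, by 0.67 ± 0.14 (SE; limma adjusted p = 0.0384). Bcl6 fell from 3 h to 12 h by 0.45 ± 0.10 (SE). Stat3 had a mean signal of 905.2 in control and 1349 at 3 h, with every 3 h array above every control, and did not pass (0.58 ± 0.17 SE; limma adjusted p = 0.109). The gp130 gene Il6st had a 3 h difference of 0.30 ± 0.11 (SE; limma adjusted p = 0.196) and Il6ra of 0.00 ± 0.17 (SE; limma adjusted p = 0.999). Calls were lost without 1 array for Osmr (4 of the 11 arrays, largest limma adjusted p 0.096), Cntfr at 3 h (1, 0.0523) and 12 h (10, up to 0.145) and Bcl6 from 3 h to 12 h (6, up to 0.0832). Of 7 SOCS family genes other than Socs3 none passed at either time against control (limma; 1 and 2 with an unadjusted p under 0.05). Socs1 and Cish had 3 h differences of −0.03 ± 0.29 and 0.09 ± 0.14 (SE). From 3 h to 12 h Socs5 rose by 0.45 ± 0.10 (SE) and Socs2 fell by 0.55 ± 0.12 (SE), calls that were each lost without any of 4 arrays (largest limma adjusted p 0.069 and 0.0729).

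Acute phase genes, many of which IL-6 induces in liver, were the list with the largest median difference from control in both comparisons. Of 24 measured 5 rose and none fell at 3 h, where 11 had an unadjusted limma p under 0.05. Cebpb and Cebpd, which encode the C/EBP factors of the acute phase response, rose by 1.84 ± 0.18 (SE; limma adjusted p = 0.000316) and 2.18 ± 0.29 (SE; limma adjusted p = 0.00241). The metallothionein gene Mt2 rose by 2.30 ± 0.31 (SE) and the metalloreductase gene Steap4 by 1.30 ± 0.24 (SE). Cebpb, Cebpd and Mt2 then fell from 3 h to 12 h by 1.38 ± 0.17, 1.80 ± 0.27 and 1.88 ± 0.28 (SE). At 12 h Saa3 (1.40 ± 0.23 SE), the haptoglobin gene Hp (1.61 ± 0.35 SE) and lipocalin 2, Lcn2 (2.21 ± 0.48 SE), were higher than control, with limma adjusted p from 0.0161 to 0.0425, and 10 of the 24 had an unadjusted limma p under 0.05. All 3 were already higher in mean at 3 h. Hp had risen by 1.57 ± 0.35 (SE; limma adjusted p = 0.0357), a call lost without any of 7 arrays (up to 0.137), while Lcn2 (1.91 ± 0.48 SE) and Saa3 (0.90 ± 0.23 SE) did not pass at 3 h. The calls of Saa3, Hp and Lcn2 at 12 h were lost without any of 2, 10 and 10 arrays, up to an adjusted p of 0.083, 0.165 and 0.155, and that of Steap4 without any of 3 (0.0855). The liver-type genes Fga, Fgb, Fgg, Apcs and Orm2, named after their values were seen, had signals at or below 10.3 on all arrays.

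Of 14 other CXC and CX3C chemokine genes none passed at 3 h, 12 h or between them (limma; 3, 3 and 1 with an unadjusted p under 0.05). Among 17 other CC chemokine genes the eosinophil attractant gene Ccl11 rose at 3 h by 1.11 ± 0.22 (SE; limma adjusted p = 0.0241), and the epithelial chemokine gene Ccl28 fell at 12 h by 0.71 ± 0.14 (SE; limma adjusted p = 0.0285). Each call was lost without any of 4 arrays (largest limma adjusted p 0.118 and 0.123). Ccl7, a neighbour of Ccl2 in function that was named after its values were seen, had signals of 12.9, 13.3 and 15.2 in control, 36.3, 70.5, 37.6 and 23.8 at 3 h, and 120.7, 74.1, 64.8 and 13.9 at 12 h. On 12 h replicate 4 Ccl7 was at the control level, whereas Ccl2 was below it. Neither difference of Ccl7 from control passed (limma adjusted p = 0.319 and 0.135).

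Among 20 chemokine receptor genes 1 rose and 1 fell at 3 h, none passed at 12 h (limma; 1 with an unadjusted p under 0.05), and 1 rose and 2 fell from 3 h to 12 h. The fractalkine receptor gene Cx3cr1 had signals of 54.4, 55.7 and 57.3 in control, 23.6, 6.7, 7.2 and 12.9 at 3 h, and 65.3, 44.2, 48.5 and 46.9 at 12 h. It fell at 3 h by 1.37 ± 0.18 (SE; limma adjusted p = 0.0023) and rose from 3 h to 12 h by 1.26 ± 0.17 (SE). The chemokine scavenger gene Ackr2, whose product binds and degrades CC chemokines such as CCL2, rose at 3 h by 0.85 ± 0.15 (SE; limma adjusted p = 0.0145) and fell by 0.74 ± 0.14 (SE) from 3 h to 12 h. Cxcr4 fell from 3 h to 12 h by 0.81 ± 0.18 (SE). Ccr2, the receptor for CCL2, had a mean of 72.1 in control and 44.7 at 3 h, a difference of −0.54 ± 0.25 (SE; limma adjusted p = 0.347). Cxcr2, the receptor for CXCL1 and CXCL2, was at or below 14.9 on all arrays. The calls of Ackr2 at 3 h and of Cxcr4 were lost without any of 2 and 5 arrays (largest limma adjusted p 0.0659 and 0.0769).

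Of 21 TNF family signalling genes Tnfrsf12a, the receptor for the cytokine TWEAK, rose at 3 h by 0.94 ± 0.18 (SE; limma adjusted p = 0.0195), a call lost without any of 3 arrays (up to 0.0662). Birc3, a ubiquitin ligase of TNF receptor signalling, fell at 12 h by 0.74 ± 0.10 (SE; limma adjusted p = 0.00582). The TNF receptor genes Tnfrsf1a and Tnfrsf1b had 3 h differences of 0.33 ± 0.14 and 0.57 ± 0.22 (SE; limma adjusted p = 0.296 and 0.24). Of 30 NF-kB subunits, feedback and target genes 4 rose and none fell at 3 h (11 with an unadjusted limma p under 0.05), and 1 rose at 12 h. Those at 3 h were Tnfaip2 (0.98 ± 0.20 SE), the adhesion molecule genes Selp (0.97 ± 0.20 SE) and Vcam1 (0.76 ± 0.18 SE), and Ier3 (0.70 ± 0.15 SE), which was also higher at 12 h (0.75 ± 0.15 SE). These calls were lost without any of 6, 6, 9 and 7 arrays at 3 h (largest limma adjusted p 0.118, 0.111, 0.176 and 0.142) and of 7 at 12 h (up to 0.145). The inhibitor genes Nfkbia and Nfkbiz, which NF-kB induces, had 3 h differences of 0.30 ± 0.13 and 0.46 ± 0.31 (SE; limma adjusted p = 0.295 and 0.554). Tnfaip3, another such inhibitor, had a mean of 311.1 in control and 211.7 at 3 h (−0.53 ± 0.13 SE; limma adjusted p = 0.0546). It rose from 3 h to 12 h by 0.56 ± 0.12 (SE) while Tnfaip2 fell by 0.88 ± 0.19 (SE), calls lost without any of 5 and 6 arrays (up to 0.0728 and 0.071).

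The PTX3 partner gene Tnfaip6 was higher at 3 h together with Ptx3. Its signal was 17.3, 17.9 and 19.2 in control, 40.4, 41.6, 41.1 and 32.8 at 3 h, and 22.6, 19.7, 10.7 and 15.4 at 12 h. The 3 h arrays lay above all others, and the rise at 3 h was 0.68 ± 0.13 (SE; limma adjusted p = 0.016) and the fall from 3 h to 12 h 0.74 ± 0.12 (SE; limma adjusted p = 0.00442). Of 22 pentraxins and PTX3 partners 3 rose and none fell at 3 h (7 with an unadjusted limma p under 0.05). The others were the hyaluronan synthase gene Has1 (1.08 ± 0.22 SE; limma adjusted p = 0.0254) and Selp. None passed at 12 h (limma; 5 with an unadjusted p under 0.05). The calls of Tnfaip6 and Has1 at 3 h were lost without any of 4 and 5 arrays (largest limma adjusted p 0.0751 and 0.121).

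A further list held 19 measured genes of cytokine mRNA decay and of MAP kinase signalling and its feedback. Among them Arid5a, whose protein stabilises Il6 mRNA, had signals of 34.5, 35.1 and 40.4 in control, 117.3, 114.7, 124.9 and 128.5 at 3 h, and 59, 39.2, 23.9 and 22.7 at 12 h. It rose at 3 h by 1.38 ± 0.19 (SE; limma adjusted p = 0.00316) and fell from 3 h to 12 h by 1.45 ± 0.18 (SE). The phosphatase gene Dusp1 rose by 0.95 ± 0.21 (SE; limma adjusted p = 0.0335) and then fell by 1.30 ± 0.19 (SE). The kinase gene Map2k6 fell at 3 h by 0.56 ± 0.10 (SE) and rose from 3 h to 12 h by 0.66 ± 0.09 (SE), when its substrate gene Mapk14 rose by 0.45 ± 0.10 (SE). Zfp36, whose protein promotes decay of cytokine mRNAs such as Tnf, had a 3 h difference of 0.16 ± 0.15 (SE; limma adjusted p = 0.692). None of the 19 passed at 12 h (limma; 3 with an unadjusted p under 0.05). The calls of Dusp1 and Map2k6 at 3 h and of Mapk14 were lost without any of 5, 1 and 4 arrays (up to 0.136, 0.0579 and 0.0795).

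The genes most like Ptx3 over the 11 arrays, by Pearson r of log2(signal + 16), were Adamts1 (0.99), Kcne4 (0.98), Slc10a6 (0.98), Sphk1 (0.98) and Smim3 (0.98). For example, the sphingosine kinase gene Sphk1 had a control mean of 28.2 ± 5.23 (SD, n = 3), against 179.9 ± 23.9 (SD, n = 4) at 3 h and 36.6 ± 8.73 (SD, n = 4) at 12 h. Those most like Il6 were Gem, Rgcc, Pde4b, Hspa2 and Cebpb, with r from 0.96 to 0.97. Those most like Cxcl1 were Mrpl27, Fgl2, Cebpd, Il4ra and Tnfaip2, with r from 0.92 to 0.97. The arrays fall into groups, so these values mostly describe a shared 3 h level, and they carry no p-value.

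Summed markers of several cell types differed between the groups, and a sum follows its brightest genes most. The summed signal of 12 measured neutrophil markers was 101.2 to 106.4 in control, 172.4 to 348 at 3 h and 110.2 to 381.4 at 12 h. No single marker passed (limma, 4 and 3 with an unadjusted p under 0.05). Of the 12, 3 had 3 h arrays that did not overlap the controls, as did 15.3% of all genes in either direction. These were S100a8, S100a9 and Mmp8, all higher. The markers Camp, Stfa2l1, Csf3r and Mmp9 had lower mean signals at 3 h than in control. The calgranulin gene S100a8 had signals of 10.5, 10.9 and 20.3 in control, 58.4, 57.2, 119.4 and 60.4 at 3 h, and 155.4, 89.8, 104.3 and 15.9 at 12 h. As for Ccl2, Cxcl1 and Socs3, 12 h replicate 4 had the lowest S100a8 of its group. The defining marker Elane was at or below 26.2 on all arrays. Summed monocyte and macrophage markers (13 measured) lay between 3000 and 4190 in control and between 2451 and 3098 at 3 h. At 12 h every array, at 2614 to 2839, was below every control in this sum. The list's mean of log2(signal + 16) was 7.36 to 7.74 in control, 7.09 to 7.31 at 3 h and 7.22 to 7.51 at 12 h, so 12 h arrays overlapped the controls. Of these markers Cx3cr1 fell at 3 h and Csf1r at 12 h, by 0.53 ± 0.12 (SE). Cd163 had a higher mean signal than control at 3 h and 12 h, and Fcgr1 at 12 h, but neither passed (limma). Mesenteric adipocyte markers (10 measured) were higher on every 3 h array, at 4009 to 5420, than on every control, at 2052 to 2555, and 2 of them rose, Fabp4 and Pparg. T and NK cell markers (10 measured) summed to 112.2 to 153 in control and 163.9 to 328 at 3 h, and none passed (limma; 2 with an unadjusted p under 0.05). Fibroblast markers (10 measured) summed to 10697 to 13965 in control and 10357 to 11716 at 3 h, where their median log2 difference was −0.16 against −0.02 for all genes and none passed (limma). They were lower on every 12 h array, at 7511 to 8378, than on every control. At 12 h 4 of them fell, the matrix genes Col3a1, Col1a2, Lum and Col1a1. Of the 10, 7 had 12 h arrays that did not overlap the controls, as did 13% of all genes in either direction. Pdgfra overlapped, with signals of 339.4, 263.7 and 244.6 in control and from 196.6 to 333.7 at 12 h. B and plasma cell markers (7 measured) also summed lower on every 12 h array, at 3191 to 3650, than on every control, at 4151 to 4966. Jchain made up most of each sum. In mean log2(signal + 16) this list overlapped, at 7.15 to 7.37 in control and 6.92 to 7.43 at 12 h. None of the 7 passed at 12 h (limma, 1 with an unadjusted p under 0.05). Smooth muscle markers (10 measured) summed to 21977 to 26295 in control and 14979 to 23904 at 12 h, and none passed against control (limma; 7 with an unadjusted p under 0.05). The part of these cells in the differences above was not tested.

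**Figure D4:**
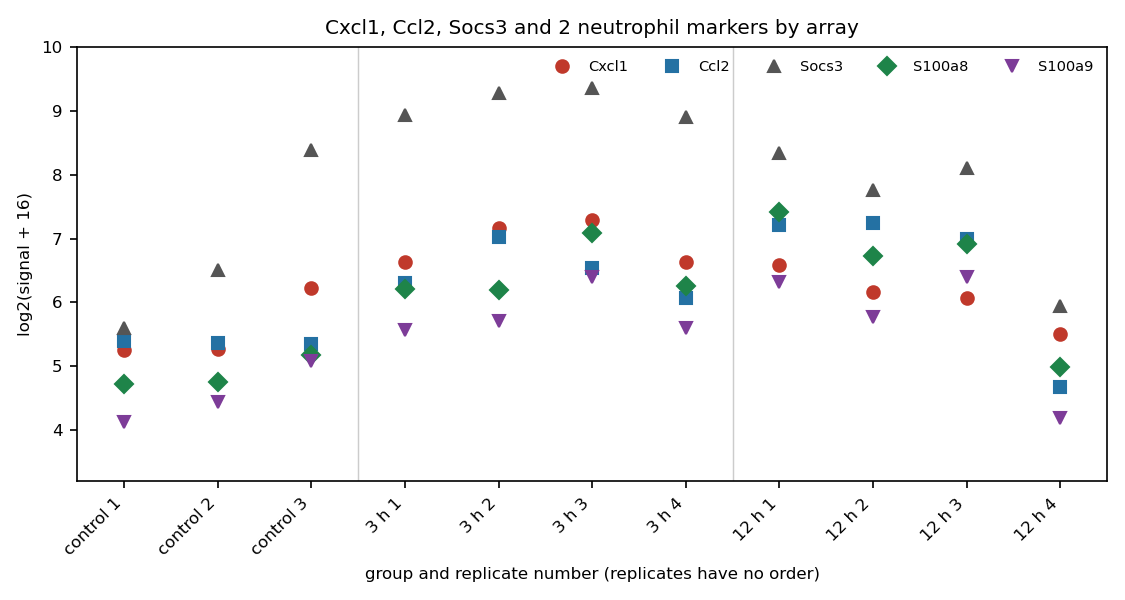
Values of log2(signal + 16) (y axis) of Cxcl1, Ccl2, Socs3 and the neutrophil markers S100a8 and S100a9 on each of the 11 arrays (x axis), 1 point per array and gene. On 12 h replicate 4 all 5 genes are the lowest of the 12 h group, and on control replicate 3 Socs3 and Cxcl1 are the highest of the controls.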

How the data were processed

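Total RNA from 11 mouse colon samples was biotin-labelled and hybridised to Affymetrix arrays, per the labels' protocols. The authors deposited 1 linear intensity per probe set. The software that made these intensities is not given in the sources used here. On every array the 2% trimmed mean was 100. Names came from the platform annotation, brought to RefSeq symbols (GRCm38.p6) by Entrez number, and a gene took its probe set with the highest mean. The 9 genes, the gene lists and the offset were chosen with earlier results of these data known. Genes were compared with limma 3.58.1 in R 4.3.3 on log2(signal + 16) over all 11 arrays (8 residual and 3.99 prior degrees of freedom), 2-sided, with Benjamini-Hochberg adjustment over 18193 genes and calls at an adjusted p under 0.05. The procedure was tested on simulated data. SE of each of the 16 probe sets came from a fit over all probe sets other than 64 controls. Most genes outside the 9 were named by rule: a fixed set of receptors, signalling and feedback genes, up to 4 called genes with the smallest p per list and comparison, the 5 nearest genes by Pearson r, and defining markers. Others were named outside this rule, after their values were seen. They were Ccl7, Fga, Fgb, Fgg, Apcs, Orm2, Serpina3n, Timp1, Reg3b, Reg3g and Cxcl5. Alternatives were scaling, offset, a level filter, probe sets, array weights, variance prior, arrays in the fit, a replicate block and leaving out each array. Leaving out arrays high in pancreatic markers was planned for the 9 genes and added after seeing the data for the counts. Figures were drawn with matplotlib 3.10.9.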

Additional observations from a re-analysis of the deposited data

Results flagged for a closer look

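Of 216 measured pathway genes 21 differed between 12 h and 3 h by a test of that difference itself (limma adjusted p under 0.05), 15 lower at 12 h and 6 higher. The lower ones, as log2 differences, were Mt2 (−1.88), Cebpd (−1.80), Arid5a (−1.45), Cebpb (−1.38), Dusp1 (−1.30), Il1r1 (−1.10), Tnfaip2 (−0.88), Cxcr4 (−0.81), Tnfaip6 (−0.74), Il1r2 (−0.74), Ackr2 (−0.74), Birc3 (−0.73), Socs2 (−0.55), Bcl6 (−0.45) and Irak3 (−0.42). The higher ones were Cx3cr1 (1.26), Map2k6 (0.66), Sigirr (0.57), Tnfaip3 (0.56), Socs5 (0.45) and Mapk14 (0.45). In the 16 probe sets of the 9 genes no array passed Dixon's test, run on linear signals, for a value apart from its group of 4. The nearest was Ccl2 on 12 h replicate 4, whose gap to the next array was 0.805 of the group's range, short of Dixon's limit. The test was not run on log2(signal + 16), the scale of the differences. It therefore cannot decide whether this array stood apart for Ccl2 on that scale.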

How the results depend on the processing

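Over the alternatives run, 565 of 585 recomputed differences of the 9 genes moved by less than the spread between replicates and 20 moved by more, 16 of these with another offset. None of the 20 differences larger than their SE changed sign. The numbers of genes called at 3 h, at 12 h and between them (462, 297 and 741) became 229, 81 and 435 with an offset of 1, 277, 183 and 466 with the replicate number as a block, and 80, 8 and 16 without the 5 arrays high in pancreatic markers, which leaves 6 arrays, 1 of them at 12 h. The counts of pathway genes (24, 9 and 21) became 12 and 1 at 3 h and 12 h with an offset of 1, and 8, 2 and 0 without those 5 arrays. At 12 h 495 genes were called with an offset of 64, 483 with a filter on low values and 536 with a trended robust prior. With only the arrays of the groups compared 62 genes and 1 pathway gene were called at 12 h. Leaving out 1 array at a time gave 161 to 520, 64 to 455 and 395 to 758 genes, and 8 to 30, 1 to 23 and 14 to 24 pathway genes. With arrays shifted to an equal median 289 genes were called higher and 146 lower at 3 h, and 165 and 115 at 12 h, against 261 and 201, and 143 and 154. The labels state no pairing of same-numbered arrays. Of 10 such pairs 3 had deviations from the group means that correlated over 0.1, and 5 of 11 arrays correlated best with an array of their own number. These values cannot show whether the arrays were paired. The number of arrays and signals near the offset limit what could be detected for Il6, Cxcl2 and Tnf.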

Other observations

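Several acute phase and defence genes had large mean differences that did not pass, with 1 array apart from its group. These genes were picked after their values were seen. Serpina3n, an acute phase protease inhibitor gene, had signals of 25.9, 28.2 and 65.5 in control, 298.7, 448.9, 443.1 and 331.1 at 3 h, and 684.5, 636.7, 641.4 and 22 at 12 h. All 12 h arrays but replicate 4 were above the 3 h arrays, and replicate 4 was below the controls. Timp1, an inhibitor of matrix metalloproteases, had 184.1, 168.6, 169.3 and 34.9 at 12 h, against 24.8 to 47.2 in control. Lcn2 and Il33, which passed at 12 h, showed the same array lowest, with 317.2, 215.5, 220.1 and 36.9 for Lcn2 and 271.1, 224.6, 178.5 and 67.4 for Il33.

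Reg3b and Reg3g, which encode antimicrobial lectins of the epithelium, varied most in control. Reg3b had signals of 497.6, 150 and 6114 in control, from 3604 to 8607 at 3 h and from 5261 to 9886 at 12 h. Reg3g had 25.2, 67.6 and 1841 in control. Control replicate 3, which was also highest of the controls in Socs3 and Cxcl1, lay within the range of the imatinib groups for both genes. The neutrophil attractant gene Cxcl5 showed it too, at 2.7, 5.1 and 30.7 in control and from 25.4 to 35.3 at 3 h.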
